A study of Homo sapiens with 15 samples.

Results

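The genes described here are 8 protein disulfide isomerases (PDIs) and PDI-like proteins, P4HB, PDIA3, PDIA4, PDIA5, PDIA6, TXNDC5, TXNDC11 and ERP44, with the 2 endoplasmic reticulum (ER) oxidases, ERO1A and ERO1B. They were taken by symbol from a table of 13243 genes measured by RNA-seq, and all 10 were found in it and tested. The cells were HEK293T, a human line derived from embryonic kidney that carries the SV40 large T antigen. Cultures were treated for 4 h with IXA1 (2 libraries), IXA4 (3), IXA6 (3), thapsigargin (Tg, 3) or the solvent DMSO (3). All groups shared the same line, medium and treatment time. The series presents the IXA compounds as activators of the IRE1/XBP1s arm of the unfolded protein response and Tg as an activator of all its arms. Tg is a known inhibitor of the SERCA calcium pump, which loads calcium into the ER. The doses are not given in the labels, so each comparison is between the treatments as they were applied.

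Disulfide bonds in secreted and membrane proteins are made in the ER by a relay of thiol groups. An ERO1 oxidase passes electrons to oxygen and re-oxidizes a PDI, and the PDI then forms, breaks or rearranges the bonds of a client protein through thioredoxin-like domains. The unfolded protein response raises the folding capacity of the ER through the sensors IRE1, ATF6 and PERK. IRE1 splices the XBP1 mRNA, and the resulting factor XBP1s and the cleaved form of ATF6 bind DNA elements known as ERSE and UPRE in many promoters of ER chaperone and PDI genes. Among the genes here P4HB is the classical PDI, PDIA3, PDIA4, PDIA6 and TXNDC5 are further oxidoreductases, and ERP44 retains clients and the ERO1 enzymes in the early secretory pathway.

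The promoter windows of 5 of the genes are shown because they are the windows with a full ERSE or UPRE core and the window of the gene with the largest change. They come from RefSeq (GRCh38.p14), run 5′ to 3′ on the strand of the gene, and cover 250 bases before and 50 bases after an annotated start. Capitals mark the ERSE (CCAAT, 9 bases of any kind, CCACG, on either strand) or the UPRE core (TGACGTG, on either strand); the PDIA4 window has neither and is in lower case throughout. The counts themselves were made on GRCh37.p13, per the submitters' processing notes.
PDIA6 (chr2:10812736-10813035, minus strand): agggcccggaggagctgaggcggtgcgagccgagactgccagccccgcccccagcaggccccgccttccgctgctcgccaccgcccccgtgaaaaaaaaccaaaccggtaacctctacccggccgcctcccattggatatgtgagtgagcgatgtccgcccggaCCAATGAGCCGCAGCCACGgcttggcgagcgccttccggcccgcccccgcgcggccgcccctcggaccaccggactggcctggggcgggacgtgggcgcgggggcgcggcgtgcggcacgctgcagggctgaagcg
ERO1B (chr1:236281909-236282208, minus strand): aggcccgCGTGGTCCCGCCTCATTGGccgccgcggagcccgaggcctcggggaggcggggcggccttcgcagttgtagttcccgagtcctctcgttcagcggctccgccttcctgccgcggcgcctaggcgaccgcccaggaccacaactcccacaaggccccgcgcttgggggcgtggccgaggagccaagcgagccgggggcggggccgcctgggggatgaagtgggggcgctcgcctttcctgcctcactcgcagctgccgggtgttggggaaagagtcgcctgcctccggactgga
TXNDC5 (chr6:7910028-7910327, minus strand): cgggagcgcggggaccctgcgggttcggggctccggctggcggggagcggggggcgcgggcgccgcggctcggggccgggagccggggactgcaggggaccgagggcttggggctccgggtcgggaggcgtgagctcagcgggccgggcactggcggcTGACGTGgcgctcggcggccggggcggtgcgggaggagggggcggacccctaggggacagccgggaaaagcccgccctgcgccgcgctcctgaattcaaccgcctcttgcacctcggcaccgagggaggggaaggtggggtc
TXNDC11 (chr16:11742808-11743107, minus strand): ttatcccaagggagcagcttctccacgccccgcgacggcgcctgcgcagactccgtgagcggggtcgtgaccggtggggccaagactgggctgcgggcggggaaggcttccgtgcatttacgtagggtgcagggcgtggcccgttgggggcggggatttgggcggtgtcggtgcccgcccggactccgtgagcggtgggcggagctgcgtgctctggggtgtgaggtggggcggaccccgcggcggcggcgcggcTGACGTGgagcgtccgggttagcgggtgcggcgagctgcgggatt
PDIA4 (chr7:149028441-149028740, minus strand): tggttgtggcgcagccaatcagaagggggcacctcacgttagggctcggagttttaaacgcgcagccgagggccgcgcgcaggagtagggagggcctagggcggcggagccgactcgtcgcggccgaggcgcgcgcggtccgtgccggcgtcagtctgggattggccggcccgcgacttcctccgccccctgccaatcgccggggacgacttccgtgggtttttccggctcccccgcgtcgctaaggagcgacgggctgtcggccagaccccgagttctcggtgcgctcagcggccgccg

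RefSeq windows were at hand for 9 of the 10 genes, 12 windows in all, since PDIA4, PDIA6 and TXNDC5 have 2 annotated starts each. The ERSE was found in 27 of 35116 promoter windows of all genes (0.0769%). Among the members it lay in the PDIA6 window shown, at bases -86 to -68 from the start, and in the ERO1B window, at bases -243 to -225 on the reverse strand. The UPRE core was found in 1.97% of all windows. It lay at bases -92 to -86 from the start shown for TXNDC5 and at bases 6 to 12 after the start of TXNDC11. The shorter CCACG element, which is the last part of the ERSE, was in 38.1% of all windows and in 7 of the 12 member windows (6 members). In both UPRE windows it overlapped the UPRE core on the other strand. The CRE core TGACG, the first part of the UPRE core, was in 24.6% of all windows and in 5 of the 12 member windows (5 members). Neither ERSE-II (ATTGG, 1 base of any kind, CCACG; 0.0541% of all windows) nor the C/EBP-ATF element (TGATGNAA; 3.62%) occurred in a member's window. These matches describe letters in a window and were not tested as binding sites.

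The 14 libraries held between 14160321 and 15726742 counts, and the common biological coefficient of variation was 5.66%. Levels are given as CPM, the counts scaled to library size with TMM factors, and changes as log2 fold changes with their standard error (SE). A gene is called changed when the adjusted p of edgeR's quasi-likelihood test, corrected over all 13243 genes by Benjamini-Hochberg, is under 0.05. Whether the libraries of a pair of groups overlap is given as a description only. The share of all genes without overlap was not counted, and in groups this small a full separation can occur without a call. The marker genes of the treatments rose with IXA1, IXA4, IXA6 and Tg by 0.65, 0.69, 0.71 and 3.33 (log2) for HSPA5, the ER chaperone BiP, and by 1.16, 1.24, 1.29 and 2.74 for DNAJB9, a known XBP1s target. In the same order XBP1 rose by 1.03, 0.84, 0.83 and 1.89. DDIT3, a target of the PERK arm, rose by 0.46 with IXA6 and by 4.27 with Tg, and its values with IXA1 (0.28) and IXA4 (0.20) were not called. HEK293T-typical genes were present (VIM 395.8 CPM and NEFM 144.8 CPM in DMSO cells), with KRT19 not in the table. Of 16 markers of blood, endothelial, fibroblast, liver, muscle and glial cells, 6 were measured, the highest at 13.1 CPM (COL1A1), and none was called against DMSO by edgeR or DESeq2 (2 had an unadjusted p under 0.05 with Tg and 0 with the IXA compounds). The 4 comparisons with DMSO use the same 3 DMSO libraries and are therefore not independent of each other. The labels name no batch.

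All 10 genes rose with Tg, by 0.19 to 2.43 on the log2 scale, where 18.8% of all genes were called higher. With IXA1, 4 of 10 rose (P4HB, PDIA3, PDIA4 and TXNDC11) against 1.82% of all genes called higher. With IXA4, 6 of 10 rose (P4HB, PDIA3, PDIA4, TXNDC5, TXNDC11 and ERO1B) against 0.717% of all genes. With IXA6, 5 of 10 rose (P4HB, PDIA3, PDIA4, TXNDC11 and ERO1B) against 1.51% of all genes. No member was called lower than in DMSO cells by edgeR or DESeq2 or had an unadjusted p under 0.05 in that direction, where 0.491% (IXA1), 0.0831% (IXA4), 0.778% (IXA6) and 17% (Tg) of all genes were called lower. In bulk RNA a change of level in every cell and a change in the share of responding cells cannot be told apart. The median log2 fold change of the 10 genes was 0.20 with IXA1, 0.24 with IXA4, 0.22 with IXA6 and 0.85 with Tg, while the medians over all genes lay between -0.01 and 0.00. When edgeR tested against a minimum 1.2-fold change, no member was called with IXA1 and PDIA4 alone with IXA4 and with IXA6.

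**Figure D1:**
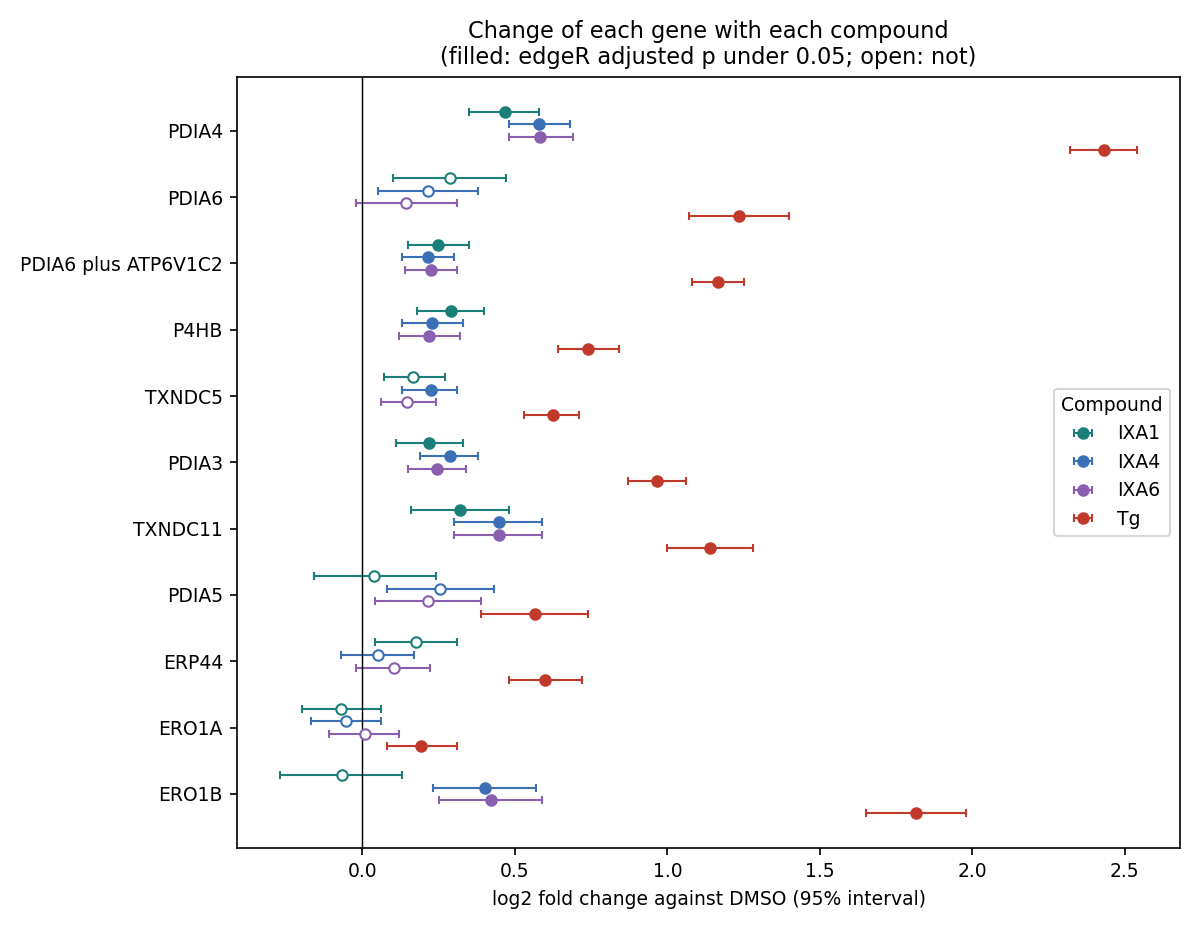
Log2 fold change of each gene against DMSO (x axis) for IXA1, IXA4, IXA6 and Tg, with bars for the 95% interval; filled points were called by edgeR at an adjusted p under 0.05 and open points were not. All 10 genes and the sum of PDIA6 and ATP6V1C2 are filled with Tg, PDIA4 has the largest value with every compound, and ERO1B with IXA1 (-0.07) lies apart from ERO1B with IXA4 (0.40) and IXA6 (0.42).

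PDIA4, known as ERp72, is a PDI that is found in complexes with BiP and other ER chaperones on unfolded clients. Its level was 450.3 and 430.1 CPM in IXA1 cells, 468.5, 493 and 465 CPM in IXA4 cells and 465.5, 465.5 and 498 CPM in IXA6 cells. It was 1740, 1808 and 1602 CPM in Tg cells, against 324, 316 and 315 CPM in DMSO cells. Every treated library lay above every DMSO library, and the Tg libraries lay above all the IXA libraries. PDIA4 rose by 0.47 ± 0.06 with IXA1 (SE, adjusted p = 1.27e-05), 0.58 ± 0.05 with IXA4 (adjusted p = 7.62e-08) and 0.58 ± 0.05 with IXA6 (adjusted p = 7.03e-08). With Tg it rose by 2.43 ± 0.05, a 5.4-fold change (edgeR adjusted p = 4.25e-21). It kept its call in every comparison with DMSO when any single library was left out. Without either IXA1 library that group has 1 library, which is then assumed to vary like the other groups; this holds for every such omission given here. It lost it only with IXA1 at a minimum of 1.2-fold.

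P4HB, the classical PDI and also the beta subunit of collagen prolyl 4-hydroxylase, had 585 and 573 CPM in IXA1 cells, 560.1, 559 and 542 CPM in IXA4 cells and 523, 550.2 and 579 CPM in IXA6 cells. It had 744, 828 and 795 CPM in Tg cells, against 488, 472 and 459 CPM in DMSO cells. No treated library overlapped a DMSO library, and the Tg libraries were the highest. The rise was 0.29 ± 0.05 with IXA1 (edgeR adjusted p = 0.00344), 0.23 ± 0.05 with IXA4 (adjusted p = 0.0203), 0.22 ± 0.05 with IXA6 (adjusted p = 0.0168) and 0.74 ± 0.05 with Tg (adjusted p = 1.76e-11). The call was lost without IXA1 replicate 1 in the IXA1 comparison. It was lost in 4 of 6 omissions with IXA4 (DMSO replicates 2 and 3, IXA4 replicates 1 and 2), where the value stayed between 0.21 and 0.25, and in 4 of 6 with IXA6 (DMSO replicates 2 and 3, IXA6 replicates 2 and 3), where it stayed between 0.18 and 0.26.

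PDIA3, known as ERp57, is the PDI that works with the lectin chaperones calnexin and calreticulin on glycoproteins. It had 264 and 280.5 CPM in IXA1 cells, 290.4, 278 and 287 CPM in IXA4 cells and 291, 273 and 268 CPM in IXA6 cells. In Tg cells it had 445, 457 and 468 CPM, against 226, 234 and 241 CPM in DMSO cells. All treated libraries were above the DMSO libraries. PDIA3 rose by 0.22 ± 0.05 with IXA1 (edgeR adjusted p = 0.0225), 0.29 ± 0.05 with IXA4 (adjusted p = 0.00094), 0.25 ± 0.05 with IXA6 (adjusted p = 0.0038) and 0.97 ± 0.05 with Tg (adjusted p = 3.03e-14). With IXA1 the call was lost in 4 of 5 omissions (DMSO replicates 1 and 2 and each IXA1 library), with values from 0.17 to 0.26.

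TXNDC5, known as ERp46, is an oxidoreductase that introduces disulfides rapidly into unfolded clients. Its level was 462 and 468 CPM in IXA1 cells, 498, 471 and 485 CPM in IXA4 cells and 466.5, 449 and 462 CPM in IXA6 cells. It was 617, 662 and 640 CPM in Tg cells, against 409.5, 425 and 410.1 CPM in DMSO cells. Every treated library was above every DMSO library, though the call was made only with IXA4 (0.22 ± 0.04, edgeR adjusted p = 0.00672) and Tg (0.62 ± 0.04, adjusted p = 4.41e-11). With IXA1 the value was 0.17 ± 0.05 (adjusted p = 0.0737) and with IXA6 it was 0.15 ± 0.04 (adjusted p = 0.0782). Both were called by DESeq2's Wald test, and over all alternatives the adjusted p ranged up to 1 from 0.0099 with IXA1 and from 0.011 with IXA6. The IXA4 call was lost without IXA4 replicate 1. The annotation also holds a readthrough transcript, BLOC1S5-TXNDC5, that shares exons with TXNDC5 and has no row of its own.

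PDIA6, known as P5, is a PDI that associates with BiP and is known to act on the IRE1 and PERK sensors. Its row in the table has to be read with that of its neighbour ATP6V1C2, a V-ATPase subunit gene. ATP6V1C2 had 6.46 to 14.3 CPM in 5 libraries (IXA1 replicate 2, IXA4 replicate 2, Tg replicates 2 and 3 and DMSO replicate 3) and 52.9 to 124 CPM in the other 9. In each of these 4 groups PDIA6 was higher in the libraries where ATP6V1C2 was low than in the others. Added together, the counts had a within-group SD of 11.3 CPM, against 44.4 CPM for PDIA6 and 38.5 CPM for ATP6V1C2. How reads were assigned to the pair is not stated in the labels.

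PDIA6 alone had 346 and 422 CPM in IXA1 cells, 336, 412 and 348 CPM in IXA4 cells and 356, 338 and 349 CPM in IXA6 cells. It had 663, 794 and 765 CPM in Tg cells, against 302, 293 and 349.6 CPM in DMSO cells. The Tg libraries stood clear of the rest, while those of each IXA compound overlapped the DMSO libraries. PDIA6 was not called with IXA1 (0.29 ± 0.09, edgeR adjusted p = 0.0996), IXA4 (0.22 ± 0.08, adjusted p = 0.354) or IXA6 (0.14 ± 0.08, adjusted p = 0.374), and it rose by 1.24 ± 0.08 with Tg (adjusted p = 1.35e-11). Single libraries moved the IXA values of PDIA6 alone. With IXA1 it was 0.14 without IXA1 replicate 2 and 0.42 without IXA1 replicate 1, and it was called without DMSO replicate 3 (0.37). With IXA4 it ranged from 0.12 without IXA4 replicate 2 to 0.30 without DMSO replicate 3, and with IXA6 from 0.09 without DMSO replicate 2 to 0.23 without DMSO replicate 3, with no call.

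The sum of PDIA6 and ATP6V1C2 was 409.9 and 429 CPM in IXA1 cells, 399, 419 and 410.2 CPM in IXA4 cells and 426, 403 and 409.9 CPM in IXA6 cells. It was 788, 808.5 and 779 CPM in Tg cells, against 355, 348 and 356 CPM in DMSO cells. No treated library overlapped the DMSO libraries. The sum rose by 0.25 ± 0.05 with IXA1 (edgeR adjusted p = 0.00408), 0.21 ± 0.04 with IXA4 (adjusted p = 0.00921), 0.23 ± 0.04 with IXA6 (adjusted p = 0.00394) and 1.17 ± 0.04 with Tg (adjusted p = 1.65e-16), the last a 2.24-fold change. The IXA1 call of the sum was lost without IXA1 replicate 2 (0.22), and the IXA4 call without DMSO replicate 2, IXA4 replicate 2 or IXA4 replicate 3 (0.20 to 0.21). With the minimum of 1.2-fold the sum was called with Tg only.

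**Figure D2:**
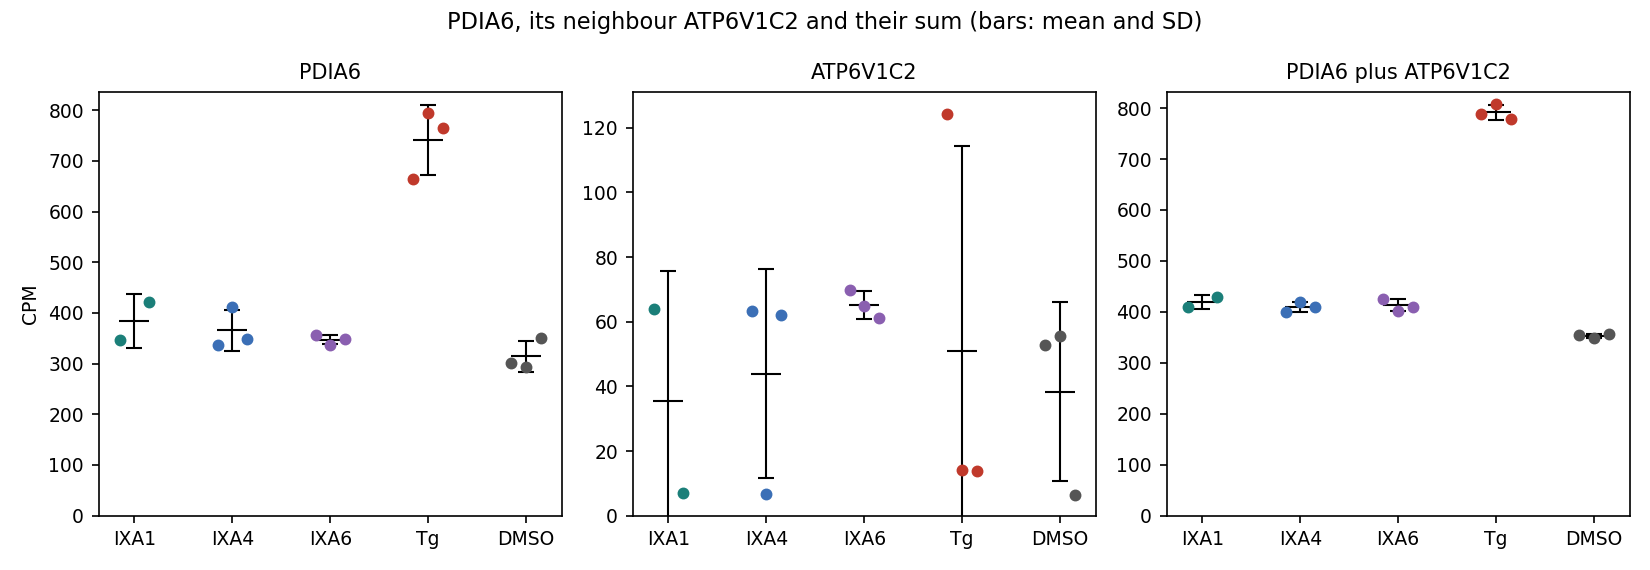
Level in CPM (y axis, from 0) of PDIA6, ATP6V1C2 and their sum in each library of the IXA1, IXA4, IXA6, Tg and DMSO groups; points are libraries, bars the mean and SD. ATP6V1C2 is low (6.46 to 14.3 CPM) in 5 libraries of 4 groups where PDIA6 is high, and the sum varies less within groups (SD 11.3 CPM) than PDIA6 (44.4 CPM).

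TXNDC11 is a membrane-bound thioredoxin-domain protein of the ER that is known to take part in the maturation of DUOX oxidases. It had 39.3 and 38.5 CPM in IXA1 cells, 42.0, 43.3 and 42.0 CPM in IXA4 cells and 39.5, 43.5 and 44.2 CPM in IXA6 cells. In Tg cells it had 61.9, 73.8 and 70.2 CPM, against 30.6, 32.1 and 30.6 CPM in DMSO cells. All treated libraries were higher than all DMSO libraries. TXNDC11 rose by 0.32 ± 0.08 with IXA1 (edgeR adjusted p = 0.031), 0.45 ± 0.07 with IXA4 (adjusted p = 0.000739), 0.45 ± 0.07 with IXA6 (adjusted p = 0.000545) and 1.14 ± 0.07 with Tg (adjusted p = 3.09e-12). The IXA1 call was lost whichever of the 5 libraries was left out, with values between 0.31 and 0.34. Summed with the adjoining gene SNN (8.87 to 27.8 CPM over the libraries), the values were 0.13, 0.21 and 0.21 with IXA1, IXA4 and IXA6, not called, and 0.47 with Tg, called. Unlike the PDIA6 sum, this sum had a larger within-group SD (4.08 CPM) than TXNDC11 alone (3.18 CPM).

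PDIA5, known as PDIR, is a PDI that is known to modify disulfides of ATF6. It had 23.1 and 21.4 CPM in IXA1 cells, 25.1, 27.2 and 25.1 CPM in IXA4 cells and 26.0, 26.3 and 23.1 CPM in IXA6 cells. It had 28.5, 36.3 and 31.4 CPM in Tg cells, against 22.2, 20.4 and 22.4 CPM in DMSO cells. The IXA1 libraries overlapped the DMSO libraries, and those of IXA4, IXA6 and Tg were above them. Only the Tg value passed the test (0.56 ± 0.08, edgeR adjusted p = 1.07e-05); the values were 0.04 with IXA1 (95% interval -0.16 to 0.24), 0.25 with IXA4 (0.08 to 0.43) and 0.21 with IXA6 (0.04 to 0.39).

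ERP44 binds immature clients and the ERO1 enzymes through thiols and returns them from the Golgi to the ER. Its level was 106 and 111 CPM in IXA1 cells, 99.4, 94.9 and 105 CPM in IXA4 cells and 109, 102 and 99.1 CPM in IXA6 cells. It was 153, 134 and 149 CPM in Tg cells, against 96.7, 97.3 and 94.4 CPM in DMSO cells. The IXA4 libraries overlapped the DMSO libraries, and the other treated libraries lay above them. ERP44 rose with Tg (0.60 ± 0.06, edgeR adjusted p = 1.24e-08). Its values with IXA1 (0.18, 95% interval 0.04 to 0.31), IXA4 (0.05, -0.07 to 0.17) and IXA6 (0.10, -0.02 to 0.22) were not called.

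ERO1A is the more widely expressed ERO1 oxidase and is known to be induced by hypoxia. It had 108 and 122 CPM in IXA1 cells, 119, 121 and 110.4 CPM in IXA4 cells and 124, 125 and 116 CPM in IXA6 cells. It had 142, 132 and 141 CPM in Tg cells, against 119, 122 and 123 CPM in DMSO cells. The libraries of each IXA compound overlapped the DMSO libraries, and the Tg libraries were above them by a small margin. The values were -0.07 with IXA1 (95% interval -0.20 to 0.06), -0.05 with IXA4 (-0.17 to 0.06) and 0.01 with IXA6 (-0.11 to 0.12). With Tg it rose by 0.19 ± 0.05, a 1.14-fold change (edgeR adjusted p = 0.00821), which was not called at the minimum of 1.2-fold.

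ERO1B, known as ERO1-beta, is the paralog of ERO1A that is abundant in pancreatic islets and is known as a target of the unfolded protein response. It had 25.4 and 27.9 CPM in IXA1 cells, 34.9, 39.2 and 36.3 CPM in IXA4 cells and 39.3, 38.0 and 34.7 CPM in IXA6 cells. It had 111, 92.4 and 91.0 CPM in Tg cells, against 28.7, 28.9 and 26.0 CPM in DMSO cells. The IXA1 libraries overlapped the DMSO libraries, the IXA4 and IXA6 libraries lay above both, and the Tg libraries were the highest. ERO1B rose by 0.40 ± 0.08 with IXA4 (edgeR adjusted p = 0.0134), 0.42 ± 0.08 with IXA6 (adjusted p = 0.00618) and 1.82 ± 0.08 with Tg (adjusted p = 5.74e-15), the last a 3.52-fold change. With IXA1 the value was -0.07 ± 0.10 (adjusted p = 0.808, 95% interval -0.27 to 0.13). The IXA4 call was lost without DMSO replicate 3 or IXA4 replicate 2, with values from 0.35 to 0.44 over all omissions.

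**Figure D3:**
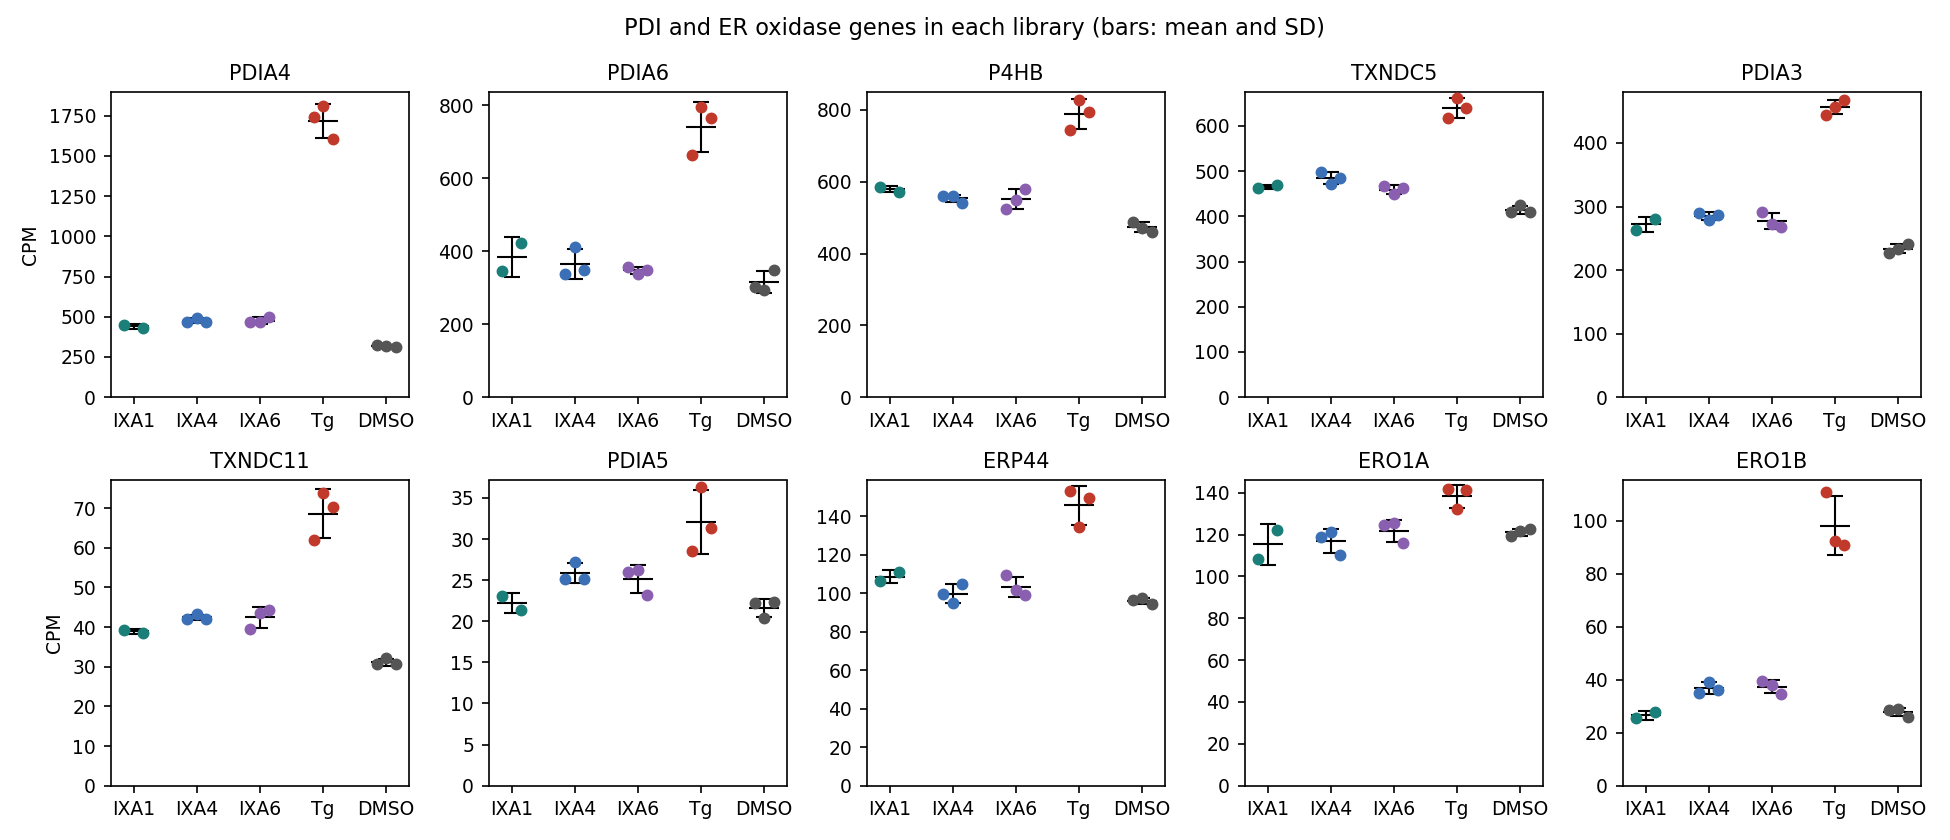
Level in CPM (y axis, from 0) of each of the 10 genes in every library of the IXA1, IXA4, IXA6, Tg and DMSO groups; points are libraries, bars the mean and SD. The Tg libraries are above all DMSO libraries for each gene, from a wide gap for PDIA4 (1602 to 1808 CPM against 315 to 324 CPM) to a narrow gap for ERO1A (132 to 142 CPM against 119 to 123 CPM).

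The 3 IXA compounds were set against each other in pairs. Over 3 pairs and 10 genes, ERO1B alone was called. It was lower with IXA1 than with IXA4 by a log2 value of -0.47 ± 0.09 (edgeR adjusted p = 0.00994, 95% interval -0.66 to -0.27) and lower with IXA1 than with IXA6 by -0.49 ± 0.09 (adjusted p = 0.00369, 95% interval -0.68 to -0.29). These are 1 of 10 members in each pair, where 0.68% and 2.82% of all genes were called lower with IXA1 than with IXA4 and than with IXA6. The call against IXA4 was lost without IXA1 replicate 1, IXA1 replicate 2 or IXA4 replicate 2 (values from -0.54 to -0.40 over all omissions), and the call against IXA6 without IXA1 replicate 1 (-0.56 to -0.42). Neither was called at the minimum of 1.2-fold. Both comparisons use the same IXA1 libraries and are therefore not independent of each other.

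Between IXA4 and IXA6 edgeR called no member and 0% of all genes. No member had an unadjusted p under 0.05, and DESeq2 called no member and 21 genes in all. The differences of the 10 members between IXA4 and IXA6 had 95% intervals of -0.11 to 0.10 for PDIA4, -0.19 to 0.15 for ERO1B, -0.09 to 0.24 for PDIA6 and -0.13 to 0.21 for PDIA5. For TXNDC5 the interval was -0.01 to 0.17, and its 3 IXA4 libraries were above its 3 IXA6 libraries. Of these intervals only that of PDIA6 alone reached the size of the called rises of P4HB and PDIA3 against DMSO (0.22). A difference of that size between IXA4 and IXA6 was therefore not excluded for the PDIA6 row. For its sum with ATP6V1C2 the interval was -0.10 to 0.08. The intervals of PDIA5 (to 0.21) and ERO1B (to -0.19) came near that size, and smaller differences were not excluded. For PDIA4 the difference of IXA1 from IXA4 was -0.11 (95% interval -0.23 to 0.00) and from IXA6 it was -0.11 (-0.23 to 0.00), neither called.

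**Figure D4:**
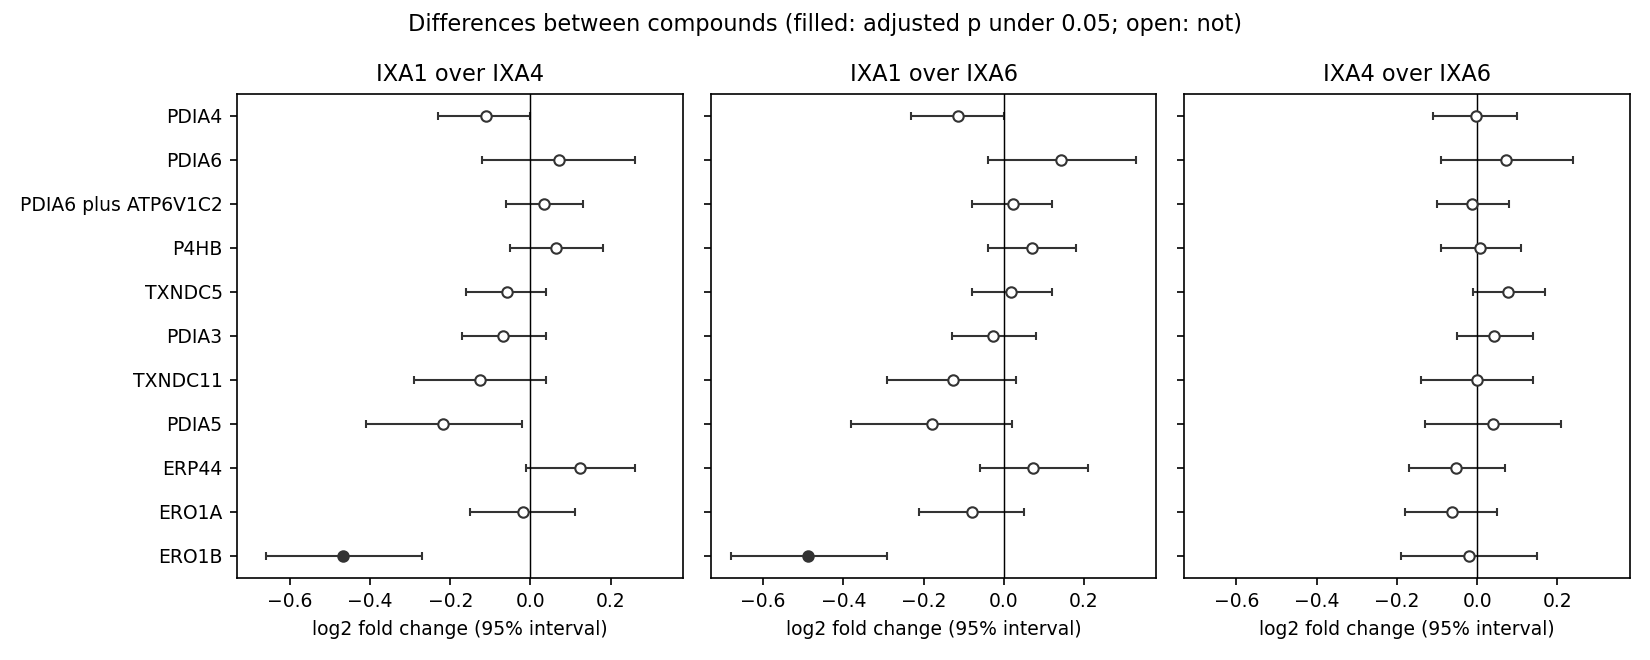
Log2 fold change between pairs of IXA compounds (x axis, 95% interval) for the 10 genes and the sum of PDIA6 and ATP6V1C2; filled points were called by edgeR at an adjusted p under 0.05. ERO1B, at -0.47 and -0.49, is the only filled point and is lower with IXA1 than with IXA4 and IXA6.

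Every member was lower with each IXA compound than with Tg, where 17.9% (IXA1), 18.4% (IXA4) and 16.8% (IXA6) of all genes were called lower than with Tg. For ERO1A this call was lost without IXA1 replicate 1 in the IXA1 comparison and without IXA6 replicate 3 or Tg replicate 3 in the IXA6 comparison. No other member's call against Tg was lost when a library was left out.

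Levels were compared between genes per kilobase of transcript, using the length of a principal transcript of a GRCh38 annotation, so that they are approximate. In DMSO cells the order of mean level was P4HB (182 ± 5.51 CPM per kb, SD, n = 3), TXNDC5 (140 ± 2.88), PDIA6 (135 ± 13.1), PDIA4 (110 ± 1.64), PDIA3 (62.7 ± 1.93), ERO1A (22.9 ± 0.32), ERP44 (19.8 ± 0.323), PDIA5 (12.0 ± 0.615), TXNDC11 (9.91 ± 0.268) and ERO1B (6.10 ± 0.359). Of neighbours in this order, only TXNDC5 and PDIA6 had overlapping libraries. In IXA1 cells PDIA6 (164 ± 22.9 CPM per kb) overlapped TXNDC5 (157 ± 1.5) and PDIA4 (152 ± 4.92). In IXA4 cells PDIA4 (164 ± 5.36 CPM per kb), TXNDC5 (163 ± 4.56) and PDIA6 (156 ± 17.5) overlapped below P4HB (213 ± 4.02). In IXA6 cells PDIA4 (164 ± 6.52) lay above TXNDC5 (155 ± 3.12), which overlapped PDIA6 (149 ± 3.97). In Tg cells PDIA4 was the highest of the 10 at 591 ± 36.2 CPM per kb, followed by PDIA6 (317 ± 29.4) and P4HB (303 ± 16.2), whose libraries overlapped. ERO1B, the lowest in DMSO cells, reached 21.5 ± 2.44 CPM per kb in Tg cells, where its libraries overlapped those of TXNDC11 (21.9 ± 1.95) and PDIA5 (17.8 ± 2.19). The order of PDIA6 turns when it is taken with ATP6V1C2. Over the PDIA6 length the sum was 179 ± 5.69, 175 ± 4.2, 177 ± 5.07 and 339 ± 6.52 CPM per kb in IXA1, IXA4, IXA6 and Tg cells, against 151 ± 1.77 CPM per kb in DMSO cells. It was second by mean level in every group, below PDIA4 in Tg cells and below P4HB in the others. The level of ERO1B was below that of ERO1A in all 5 groups.

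**Figure D5:**
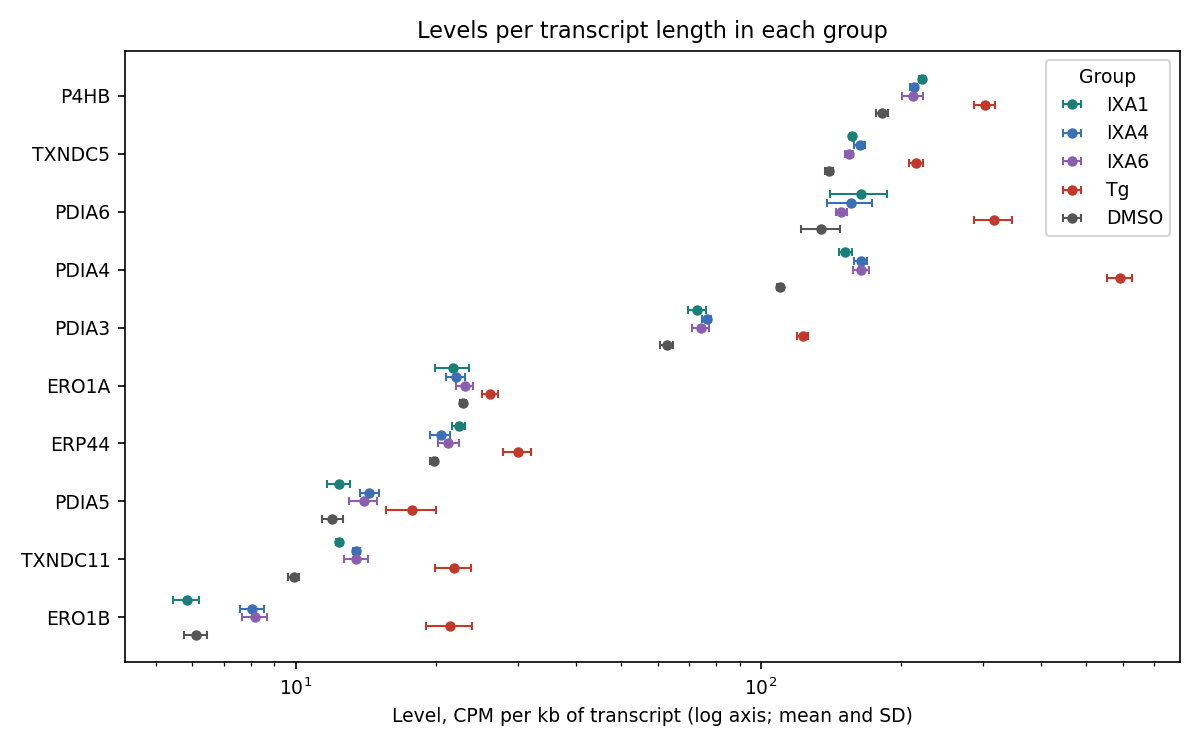
Mean level in CPM per kb of transcript (x axis, log scale) with SD for the 10 genes in IXA1, IXA4, IXA6, Tg and DMSO cells. PDIA4 is the fourth gene in DMSO cells (110 CPM per kb) and the highest in Tg cells (591 CPM per kb), and ERO1B stays below ERO1A in every group.

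Other genes of the pathway were taken as lists, whose counts stand beside the shares of all genes called higher with IXA1 (1.82%), IXA4 (0.717%), IXA6 (1.51%) and Tg (18.8%) and lower with Tg (17%) than in DMSO cells. Of 10 measured further PDI family members, none was called with IXA1 or IXA4 by edgeR or by DESeq2 against DMSO (3 had an unadjusted p under 0.05 with each), and DNAJC10, an ER reductase with a J domain, rose with IXA6 (0.24 ± 0.06, edgeR adjusted p = 0.0212). With Tg 6 of the 10 rose (18.8% of all genes), among them DNAJC10 (0.79) and the transmembrane thioredoxin-like genes TMX3 (0.52) and TMX4 (0.39), with ERP29 (0.42). Between compounds, TMX1 (-0.22), TMX3 (-0.27) and TXNDC15 (-0.27) were lower with IXA1 than with IXA6 (3 of 10, beside 2.82% of all genes).

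Of 11 other ER thiol redox genes measured, VIMP (also called SELENOS, a selenoprotein of the ER membrane linked to ER-associated degradation) rose with IXA1 (0.32), IXA4 (0.31) and IXA6 (0.39), and it was the only gene of that list called with them against DMSO. With Tg 4 of 11 rose (18.8% of all genes), VIMP (1.26), SELK (1.28), GPX8 (0.68), an ER peroxidase that uses PDI, and SELM (0.28). The other 2 called, the sulfhydryl oxidase QSOX1 (-0.20) and SEPN1 (-0.23), fell with Tg, 2 of 11 beside 17% of all genes. SEPN1 was higher with IXA1 than with IXA6 (0.33, edgeR adjusted p = 0.00835), where 4.53% of all genes were called higher.

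The list of partners holds protein partners of the PDIs and of ERP44 and also cargo receptor genes, with 9 measured. Of these, 2 rose with every IXA compound, the lectin chaperones CALR and CANX, with which PDIA3 works. With IXA1, IXA4 and IXA6 the values were 0.29, 0.27 and 0.25 for CALR and 0.35, 0.27 and 0.30 for CANX. These 2 of 9 stand beside 1.82%, 0.717% and 1.51% of all genes. With Tg 5 of 9 rose (18.8% of all genes), among them CALR (1.28), CANX (0.92) and the cargo receptor genes MCFD2 (0.61) and LMAN1 (0.53). SUMF1 fell with Tg (-0.52).

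The 18 thiol redox genes that act outside the ER gave no call with any IXA compound against DMSO by edgeR or DESeq2, with 4, 0 and 3 at an unadjusted p under 0.05 for IXA1, IXA4 and IXA6. With Tg 4 rose (GLRX 0.56, TXNL1 0.24, TXNDC9 0.24 and PRDX5 0.21) and 4 fell (NXN -0.26, GLRX5 -0.23, PRDX1 -0.16 and PRDX2 -0.15). These are 4 of 18 in each direction, beside 18.8% of all genes called higher and 17% called lower. PRDX3, a mitochondrial peroxiredoxin, was lower with IXA1 than with IXA6 (-0.20, edgeR adjusted p = 0.045). This is 1 of 18, beside 2.82% of all genes called lower in that pair.

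Against Tg, the further PDI family genes were called lower in 7, 6 and 5 of 10 cases with IXA1, IXA4 and IXA6, where 17.9%, 18.4% and 16.8% of all genes were called lower. The other ER thiol redox genes were called lower in 4 of 11 cases and the partners in 5 of 9 with each compound, and the genes outside the ER in 5, 2 and 2 of 18. The genes called higher than with Tg were 0, 1 and 0 of the further PDI family, 1, 2 and 0 of the other ER thiol redox genes, 0, 1 and 0 of the partners and 3, 3 and 1 of those outside the ER, beside 15.9%, 16% and 14.2% of all genes.

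The genes whose profile was nearest to 4 of the members were found by the Euclidean distance between centred log2 CPM values over the 14 libraries, among 10753 genes with a mean of at least 5 CPM. For PDIA4 they were MANF (distance 0.252), HYOU1 (0.395), SEL1L (0.478) and SDF2L1 (0.549). For P4HB they were COPG1 (0.176), SSR2 (0.204), PPIB (0.219) and GORASP2 (0.23), and for TXNDC11 they were SEC61A1 (0.317), SSR3 (0.358), PDIA3 (0.401) and TMEM214 (0.404). For ERO1B they were TMED7 (0.528), HSP90B1 (0.533), DNAJC3 (0.534) and GFPT1 (0.589). With IXA1 the log2 fold changes of these 4 against DMSO were 0.19, 0.26, 0.30 and 0.11, while that of ERO1B was -0.07. The profiles share their libraries and scaling, so the distances are a description only.

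The authors' deposited table of each compound lists adjusted p-values under 0.05 for 5 members with IXA1, 6 with IXA4, 6 with IXA6 and 10 with Tg. In the authors' deposited tables the genes under 0.05 made up 5.89%, 2.11%, 5.2% and 29.1% of those with an adjusted p, for IXA1, IXA4, IXA6 and Tg. TXNDC5 is among them for IXA1 (adjusted p = 0.000236 in the authors' deposited table) and for IXA6 (0.016 in the authors' deposited table). For the 10 members, the log2 fold changes of the authors' deposited tables differ from those given here by at most 0.08 with IXA1. With IXA4, IXA6 and Tg they differ by at most 0.01. For ATP6V1C2 with IXA1 the value is 0.26 in the authors' deposited table and -0.12 here. Neither the libraries nor the comparison group behind each table is named in it.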

How the data were processed

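HEK293T cells were treated for 4 h in 3 independent experiments, and RNA-seq libraries were made at a sequencing company, per the labels' protocols. The deposited table holds whole-number counts per gene, and the genome build GRCh37.p13 and DESeq are named in the submitters' processing notes; no source at hand names the aligner, the counter or its use of strand. The authors' deposited tables also give log2 fold changes and adjusted p-values for each compound. A single column (1) of the counts matched no label and was not used, so IXA1 has 2 libraries; the labels list 3 IXA1 samples, the last of which matches no column name and is not analysed here. Symbols that a spreadsheet had turned into dates (22 rows, 0.249 to 0.282% of the counts) were kept in the model but cannot be named.

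Counts were fitted in edgeR 4.0.16 (R 4.3.3) with TMM scaling and the quasi-likelihood test, all 14 libraries in 1 model with no covariate. Changes were tested in 10 comparisons, with p-values adjusted over all 13243 genes in each; edgeR's filter on low counts removed 0 genes. Each p-value sets a difference between groups against the spread between these cultures within groups. That spread was estimated over all groups together. CPM used a prior count of 2 on the log2 scale. DESeq2 1.42.0 was an alternative. The genes and lists were chosen with earlier results of these data known. All members are named, and of each further list at most 4 called genes each way per comparison, by size, could be named. Sequences come from RefSeq promoter windows (GRCh38.p14), which were used for letters only. The other settings were DESeq2's size factors, no filter, a mean of at least 5 CPM, the 2 compared groups alone, a minimum fold of 1.2, sums with adjoining genes, a replicate block and each library left out.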

Additional observations from a re-analysis of the deposited data

How the results depend on the processing

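The limits of these results are the small groups, with 2 to 3 libraries each, and the small size of most changes with the IXA compounds, which lay near the test's threshold. The 10 member calls with Tg and the PDIA4 calls against DMSO were kept whichever single library was omitted; with 1 IXA1 library left, its spread is taken from the other groups. In all, 760 values of single genes and of the PDIA6 sum were computed under the settings that neither omit a library nor add genes up. Of these, 726 kept direction and side of the threshold, 25 lost a call, 5 gained a call and 4 changed sign. The 726 include 100 values from the fit with no filter. The filter removed 0 genes, so that fit repeats the main one and its values could not differ. TXNDC5 gained a call with IXA1 and IXA6 by DESeq2, and PDIA6, TXNDC5 and ERP44 gained a call with IXA1 in the fit of the 2 groups alone, where 7 members were called. In that kind of fit ERO1A lost its call between IXA6 and Tg.

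With a minimum fold of 1.2, a stricter question by construction, members called were 0 (IXA1 vs DMSO), 1 (IXA4 vs DMSO), 1 (IXA6 vs DMSO), 0 (IXA1 vs IXA4) and 0 (IXA1 vs IXA6). All genes called at this minimum were 22, 21, 25 and 1396 for IXA1, IXA4, IXA6 and Tg against DMSO, 4 for IXA1 vs IXA4, 9 for IXA1 vs IXA6, and 1199, 1123 and 1031 for IXA1, IXA4 and IXA6 against Tg. DESeq2's Wald test called 594 genes for IXA1 vs IXA4 (342 by edgeR) and 21 for IXA4 vs IXA6 (0 by edgeR, with 1222 at an unadjusted p under 0.05). A mean of at least 5 CPM gave 3 genes for IXA4 vs IXA6. The fit of the 2 groups alone called 648 genes for IXA1 vs DMSO, 198 for IXA4 vs DMSO, 1156 for IXA1 vs IXA4 and 13 for IXA4 vs IXA6. The cause of these differences was not tested.

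When 1 library was left out, the members called were 1 to 4 (IXA1 vs DMSO), 4 to 6 (IXA4 vs DMSO), 4 to 5 (IXA6 vs DMSO), 10 to 10 (Tg vs DMSO), 0 to 1 (IXA1 vs IXA4), 0 to 1 (IXA1 vs IXA6), 0 to 0 (IXA4 vs IXA6), 9 to 10 (IXA1 vs Tg), 10 to 10 (IXA4 vs Tg), 9 to 10 (IXA6 vs Tg), and the genes called were 82 to 181 (IXA1 vs DMSO), 69 to 95 (IXA4 vs DMSO), 118 to 319 (IXA6 vs DMSO), 3843 to 5009 (Tg vs DMSO), 11 to 166 (IXA1 vs IXA4), 113 to 1128 (IXA1 vs IXA6), 0 to 2 (IXA4 vs IXA6), 2949 to 4778 (IXA1 vs Tg), 3687 to 4626 (IXA4 vs Tg), 3243 to 3946 (IXA6 vs Tg).

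Sign changes occurred in 16 values, none of them called under any setting and at most 0.1435 in size. For IXA4 vs IXA6 they were PDIA4 (4e-04) and TXNDC11 (0.0025) with a mean of at least 5 CPM, TXNDC11 with the 2 groups alone (6e-04) and with the replicate block (9e-04), and PDIA6 as the sum with ATP6V1C2 (-0.0118). With 1 library left out, the log2 fold changes that changed sign ranged as follows. In IXA1 vs DMSO, ERO1A -0.159 to 0.0105, PDIA5 -0.0212 to 0.0933. In IXA1 vs IXA4, ERO1A -0.106 to 0.0634, PDIA6 -0.0796 to 0.2065. In IXA1 vs IXA6, ERO1A -0.1676 to 0.0019, PDIA3 -0.0719 to 0.0181, PDIA6 plus ATP6V1C2 -0.0102 to 0.0546, PDIA6 -0.0067 to 0.2794. In IXA6 vs DMSO, ERO1A -0.0125 to 0.0444. In IXA4 vs IXA6, ERO1B -0.0712 to 0.0174, P4HB -0.0282 to 0.0451, PDIA4 -0.0299 to 0.031, PDIA5 -0.0179 to 0.0721, PDIA6 plus ATP6V1C2 -0.0295 to 0.0112, PDIA6 -0.0224 to 0.1299, TXNDC11 -0.0494 to 0.0311.

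The replicate numbers were not taken as pairs: of 26 pairs of libraries with the same number, 1 correlated above 0.1 in its deviations from the group means (range -0.148 to 0.112), as did 5 of 52 pairs with different numbers. With the replicate block no member's call changed, with 4, 6, 5 and 10 members called for IXA1, IXA4, IXA6 and Tg against DMSO, and 247, 96, 265 and 4621 genes in all. The settings on the sum of PDIA6 and ATP6V1C2 were chosen after seeing the data.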
